A study of Mus musculus with 57 samples.

Results

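The genes described here encode the classical axon guidance cues and their receptors: semaphorins with neuropilins and plexins, ephrins with Eph receptors, Slits with Robos, and netrins with Dcc and the Unc5 receptors. They were chosen by mouse gene symbol and by a value of at least 35 normalised reads in at least 3 libraries. Of 68 genes whose symbols matched, 67 reached that level, out of 45337 genes in the deposited table and 21944 at the same level. The 1 gene left out, Sema4c, reached it in 2 libraries, and the genes nearest above the limit were Sema3g and Efna4 with 4 libraries each and Sema3b with 5. RNA of mouse brain cells was sequenced after SMART-Seq amplification, with 57 libraries made from 32 animals. The cells were corticospinal neurons (CSN), which project from the cortex to the spinal cord, or cells that the labels name control cells without saying which cells they are. The sources used here do not say how either was isolated. Wild-type animals were compared with animals carrying Sod1G86R, a mutant of superoxide dismutase 1 used to model amyotrophic lateral sclerosis. Its promoter is named neither in the labels nor elsewhere in the sources used.

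Wild-type CSN gave 4 libraries at each of the ages 30, 60, 90 and 105, which are plain numbers in the labels and are read here as days. Sod1G86R CSN gave 3, 4, 4 and 2 libraries in that order, wild-type control cells 4, 2, 4 and 4, and Sod1G86R control cells 3, 3, 4 and 4. In 25 animals both cell types were sampled, 14 of them wild type and 11 Sod1G86R. Levels are the authors' normalised reads per library. Fold changes were taken after adding 34.6 to each value (log2(value + 34.6)), so the change of low genes is understated, and a gene passed at an adjusted p under 0.05 by limma with Benjamini-Hochberg adjustment over all genes of a fit.

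Guidance cues are ligands that attract or repel a growth cone through receptors on its surface, and the same receptor families continue to act on branching, synapses and vessels in the adult. Secreted class 3 semaphorins act on complexes of a neuropilin and a class A plexin, except Sema3E, which binds plexin-D1 directly. Ephrin-B3 at the spinal midline repels corticospinal axons that carry EphA4, netrin-1 attracts through Dcc and repels through Unc5 receptors, and Slits repel through Robos.

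Reads recovered from the normalised values numbered 22.2 to 64.2 M per library. Sod1 stood at 80216 to 172180 in Sod1G86R CSN and 1806 to 4562 in wild-type CSN, and at 38567 to 155480 against 1611 to 4244 in control cells, so every library matched its genotype label. The summed level of 10 CSN markers was 60136 to 106400 in wild-type CSN and 3658 to 11276 in wild-type control cells, without overlap. Of the 10, 9 passed as higher in CSN and 1 as lower. Markers of other cells were present in both, and none was at 0 in every library. The sum of 10 upper-layer and callosal neuron markers was 9789 to 15499 in wild-type CSN and 18059 to 71535 in wild-type control cells. For 8 interneuron markers the sum was 115 to 1415 (median 239) and 319 to 10395 (median 4072). The summed level of 8 oligodendrocyte markers was 4103 to 303470 in wild-type CSN and 117110 to 2136500 in wild-type control cells, that of 8 microglia markers 1572 to 11077 and 14817 to 179100, and that of 12 endothelial and mural cell markers 702 to 3529 and 5081 to 38474. Reads of mitochondrially encoded proteins made up 7.51% ± 2.39 (SD, n = 16) in wild-type CSN, 4.90% ± 1.77 (n = 13) in Sod1G86R CSN, 1.18% ± 0.455 (n = 14) in wild-type and 1.52% ± 0.625 (n = 14) in Sod1G86R control cells. In such bulk samples fewer cells of a type and less RNA per cell cannot be told apart.

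The first comparison set CSN against control cells in wild-type animals of all 4 ages. Of the 67 genes, 29 were higher in CSN, 28 were lower and 10 did not pass, and every role but the netrins had members that passed in each direction. Sema3b, Sema3g, Efna4, Ephb4 and Ntn5 did not reach the level of the rule in 3 CSN libraries. They are among the 67 through control cells, and that choice favours falls in CSN for them. Of all 22032 genes tested, 56.3% passed, 26.8% higher and 29.5% lower, so the count of 57 stood in a comparison where most genes differed. The median log2 fold change was -0.20 over the 67 genes and -0.03 over all genes. Sema3e was the largest rise and Unc5d the largest fall. In 8 of the 67 genes every CSN library lay above every control-cell library, and in 3 every CSN library lay below. Of all genes, 4.38% separated in this way, 2.65% above and 1.73% below. Within the 14 animals that gave both cell types, 20 of the genes were higher in CSN in each animal and 6 were lower in each, where 7.6% and 6.53% of all genes were.

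**Figure D1:**
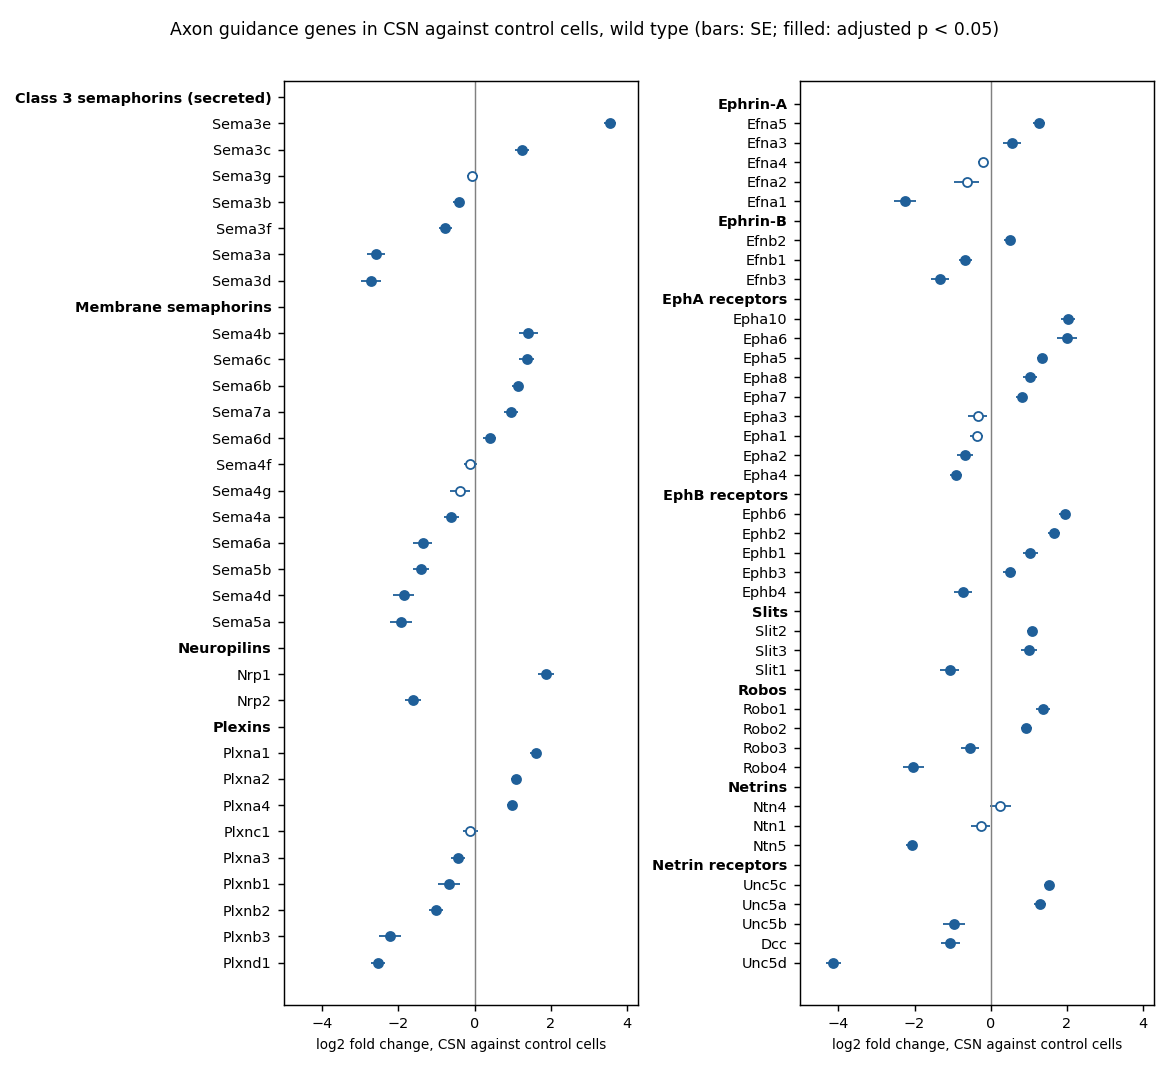
Log2 fold change of CSN against control cells in wild type (horizontal axis) for the 67 guidance genes, grouped by role, with bars for the standard error and filled points for genes that passed at an adjusted p under 0.05. Every role has values on both sides of 0, and Sema3e (3.56) and Unc5d (-4.13) are the extremes.

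Among the secreted class 3 semaphorins, 2 of 7 were higher in CSN, 4 were lower and Sema3g did not pass (-0.06, adjusted p = 0.728). Sema3e (ENSMUSG00000063531), a ligand of plexin-D1, stood at 1558 to 2666 (median 2033) in wild-type CSN and at 84.9 to 261 (median 146) in wild-type control cells. The lowest CSN library was several times the highest control-cell library (log2 fold change 3.56, SE 0.168, adjusted p = 2.54e-23, higher in 14 of 14 animals). Sema3c, a ligand that can attract cortical axons, stood at 1297 to 3533 (median 2226) and 401 to 1700 (median 1062). The ranges overlapped, and the gene was higher in CSN in each of the 14 animals (log2 fold change 1.25, SE 0.192, adjusted p = 2.59e-07). Sema3a, the prototype repellent that acts through neuropilin-1, went the other way, at 45.2 to 209 (median 105) in CSN and 300.1 to 1873 (median 1062) in control cells, with no overlap (log2 fold change -2.59, SE 0.239, adjusted p = 3.62e-13). Sema3d stood at 9.17 to 156 (median 29.3) and 54.5 to 1772 (median 451), lower in CSN in all 14 animals though a few libraries overlapped (log2 fold change -2.71, SE 0.268, adjusted p = 2.99e-12). Sema3f, a ligand of neuropilin-2 (-0.76), and Sema3b (-0.42), both low in either cell type, were also lower in CSN. When the mitochondrial share entered the fit Sema3f turned to the other side of 0 (0.48, adjusted p = 0.381), and with the glial score described below it did not pass (-0.44, adjusted p = 0.368). For Sema3b the wild-type medians ran the other way (9.46 in CSN and 6.01 in control cells), and 8 of 14 animals were higher in CSN. It did not pass in edgeR or DESeq2, with a smaller pseudocount or without 1 wild-type 60-day control library, replicate 1 (adjusted p = 0.16), and took the opposite sign when the mitochondrial share entered the fit.

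The 4 most changed class 3 semaphorins lie in the same stretch of chromosome 5, all on the plus strand (GRCm38, GENCODE M21). Sema3d spans 12383385 to 12588948, Sema3a 13125414 to 13602565, Sema3e 14025276 to 14256689 and Sema3c 17574281 to 17730268. The pair nearer the start of this stretch was lower in CSN and the other pair higher. Sema3d, Sema3e and Sema3c were also the class 3 semaphorins that passed between genotypes in CSN, as given further on. The 250 bases before their RefSeq starts (GRCm38.p6, plus strand) are shown because these neighbours differed in direction, with capitals for CCAAT boxes (CCAAT or ATTGG) and for the core of the cyclic AMP response element (TGACG or CGTCA).
Sema3d, chr5:12382916-12383165: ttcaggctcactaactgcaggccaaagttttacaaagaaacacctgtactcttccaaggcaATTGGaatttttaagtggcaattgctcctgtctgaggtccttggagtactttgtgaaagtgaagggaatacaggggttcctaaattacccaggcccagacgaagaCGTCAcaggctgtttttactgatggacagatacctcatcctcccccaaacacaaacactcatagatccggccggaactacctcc
Sema3e, chr5:14025026-14025275: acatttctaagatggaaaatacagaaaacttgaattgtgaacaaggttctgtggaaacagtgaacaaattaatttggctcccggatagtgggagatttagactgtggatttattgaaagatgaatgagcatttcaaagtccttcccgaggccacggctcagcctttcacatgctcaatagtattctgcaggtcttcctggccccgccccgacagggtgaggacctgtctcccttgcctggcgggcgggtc
Sema3c, chr5:17574566-17574815: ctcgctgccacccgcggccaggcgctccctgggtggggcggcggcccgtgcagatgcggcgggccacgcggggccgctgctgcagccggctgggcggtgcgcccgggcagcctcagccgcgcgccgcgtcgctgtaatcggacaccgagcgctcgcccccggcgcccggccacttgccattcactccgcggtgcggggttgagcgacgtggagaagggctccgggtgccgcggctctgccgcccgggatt
The Sema3d window held 1 such core and 1 CCAAT box, while the Sema3e and Sema3c windows held neither. GC content was 46.8%, 48.0% and 78.4% in this order. The window of Sema3a, also lower in CSN and not printed here, held no core and no CCAAT box and had 40.8% GC. RefSeq starts were given for 57 of the 67 genes, with 72 windows. The full response element TGACGTCA was found in 1 of the 72 windows (1.39%, Epha2) and in 1.55% of 32851 windows of all genes, counting both strands. The core, which is contained in the full element, was in 7 windows (9.72% against 17.8%), and the CCAAT box in 20 (27.8% against 33.8%). The median GC content was 64.2% in the guidance gene windows and 52.4% in all.

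Membrane-bound semaphorins split evenly, with 5 of 12 higher, 5 lower and 2 not passed. The higher genes were Sema4b (1.41), Sema6c (1.37), Sema6b (1.13), the GPI-anchored Sema7a (0.96) and Sema6d (0.40). Among the lower genes, Sema5a, a transmembrane cue with thrombospondin repeats, stood at 33.05 to 329.7 (median 91.3) in CSN and 53.3 to 1823 (median 489) in control cells (log2 fold change -1.94, SE 0.292, adjusted p = 1.67e-07). Sema4d, a plexin-B1 ligand known from myelinating and immune cells, stood at 72.9 to 408 (median 150.1) and 117.5 to 3857 (median 667) (log2 fold change -1.86, SE 0.282, adjusted p = 1.77e-07). Sema6a, a plexin-A4 and plexin-A2 ligand, stood at 136.6 to 609.7 (median 281) and 172 to 2863 (median 597) (log2 fold change -1.36, SE 0.246, adjusted p = 5.39e-06). The CSN and control-cell ranges of these 3 genes overlapped, and each was higher in CSN in 1 of 14 animals. Sema5b (-1.41) and Sema4a (-0.61) were also lower, and Sema4f (-0.11, adjusted p = 0.61) and Sema4g (-0.39, adjusted p = 0.199) did not pass. Sema6d did not pass in edgeR or DESeq2, and 16 of the 57 libraries ended its call when left out singly (adjusted p up to 0.127).

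The neuropilins, which bind class 3 semaphorins and vascular growth factors, moved in opposite directions. Nrp1 stood at 3485 to 6908 (median 4622) in wild-type CSN and 602 to 2115 (median 1365) in control cells, with no overlap (log2 fold change 1.87, SE 0.206, adjusted p = 6.41e-11). Nrp2 stood at 53.8 to 149 (median 83.4) and 127 to 969 (median 311), lower in CSN in all 14 animals (log2 fold change -1.62, SE 0.218, adjusted p = 1.35e-08). The highest Nrp2 value in CSN was above the lowest in control cells, so the ranges overlapped.

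Among the plexins, the signalling receptors for semaphorins, 3 of 9 were higher, 5 lower and Plxnc1 did not pass (-0.12, adjusted p = 0.633). The higher genes were 3 of the 4 class A plexins. Plxna1 stood at 2016 to 3288 (median 2499) in CSN and 472 to 1264 (median 888) in control cells, with no overlap (log2 fold change 1.61, SE 0.140, adjusted p = 6.57e-14). Plxna2 (1.09) and Plxna4 (0.98), a receptor in Sema3A and Sema6A signalling, were higher in CSN in each of the 14 animals. Plxna3 was lower, at 168 to 416 (median 304) and 210.0 to 855 (median 378) (log2 fold change -0.44, SE 0.189, adjusted p = 0.0439). That call was lost in 8 of 13 alternatives, among them edgeR and trimmed mean (TMM) scaling, and without any 1 of 13 libraries (adjusted p up to 0.186). Plxnd1, the Sema3E receptor, stood at 10.99 to 57.8 (median 36.9) in CSN and 124 to 612 (median 384) in control cells, the reverse of its ligand and again with no overlap (log2 fold change -2.54, SE 0.180, adjusted p = 6.77e-17). The class B plexins were lower: Plxnb3, known from oligodendrocytes (-2.22, adjusted p = 3.78e-09), Plxnb2 (-1.01, adjusted p = 3.82e-06) and Plxnb1 (-0.67, adjusted p = 0.0398). Plxnb1 did not pass in edgeR or DESeq2 or without any 1 of 14 libraries (adjusted p up to 0.104), and was above 0 when the glial score described below entered the fit.

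**Figure D2:**
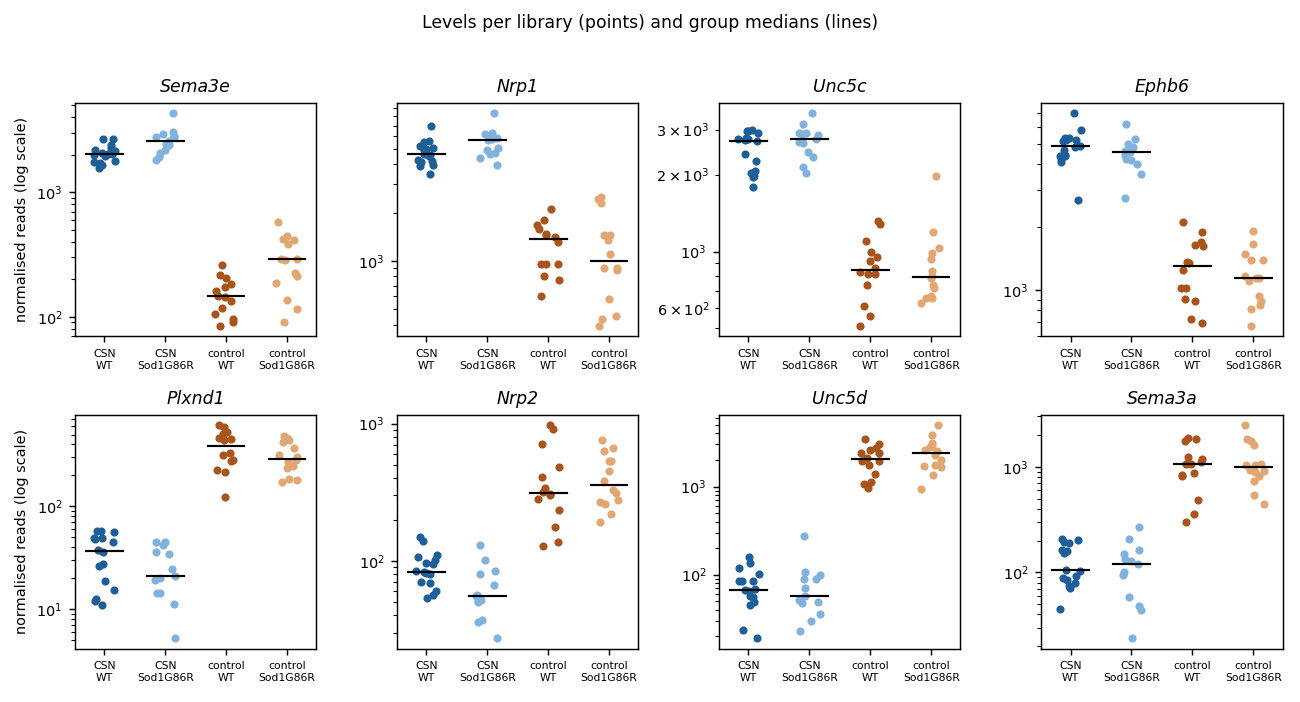
Normalised reads (log axis) of 8 guidance genes in every library, as points, by cell type and genotype (16, 13, 14 and 14 libraries), with lines at the medians. Sema3e, Nrp1, Unc5c and Ephb6 are higher in CSN with no overlap in either genotype, Plxnd1, Unc5d and Sema3a are lower with none, and Nrp2 overlaps in wild type only.

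Eph receptors, the receptor tyrosine kinases for ephrins, were mostly higher in CSN. Of 9 EphA receptors 5 were higher, 2 were lower and 2 did not pass, and of 5 EphB receptors 4 were higher and 1 was lower. Epha10, an EphA receptor that lacks kinase activity, stood at 1994 to 3728 (median 2510) in CSN and 187 to 1601 (median 481) in control cells, with no overlap (log2 fold change 2.03, SE 0.195, adjusted p = 1.22e-12). Ephb6, which also lacks kinase activity, stood at 2691 to 7020 (median 4879) and 697 to 2118 (median 1297), and its ranges were apart too (log2 fold change 1.95, SE 0.144, adjusted p = 3.26e-16). Ephb2 stood at 707 to 1225 (median 947) and 142 to 553 (median 285), again without overlap (log2 fold change 1.67, SE 0.159, adjusted p = 1.04e-12). Epha6 (1.995), Epha5 (1.34), Epha8 (1.04), Ephb1 (1.04), Epha7 (0.81) and Ephb3 (0.50) were higher with overlapping ranges. Epha4, the receptor through which ephrin-B3 repels corticospinal axons, went against most of its family. It stood at 3246 to 5662 (median 4396) in CSN and 3565 to 17861 (median 8966) in control cells (log2 fold change -0.92, SE 0.154, adjusted p = 1.49e-06), and was lower in CSN in 13 of 14 animals. Ephb4, an endothelial receptor (-0.72), and Epha2 (-0.67) were lower, each losing the call without wild-type 60-day control replicate 1 (adjusted p = 0.11 and 0.0528). Epha3 (-0.34, adjusted p = 0.243) and Epha1 (-0.37, adjusted p = 0.0624) did not pass.

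Ephrins, the ligands, went both ways. Efna5, an ephrin that shapes topographic maps, stood at 2649 to 5270 (median 3822) in CSN and 653 to 3288 (median 1870) in control cells and was higher in CSN in each of the 14 animals (log2 fold change 1.27, SE 0.155, adjusted p = 1.14e-09). Efna1, known from endothelial cells, stood at 19.03 to 179 (median 72.3) and 15.8 to 2103 (median 438) (log2 fold change -2.25, SE 0.286, adjusted p = 3.08e-09). Efnb3, the midline repellent, stood at 122 to 890.3 (median 271) and 335 to 2158 (median 706) (log2 fold change -1.33, SE 0.232, adjusted p = 2.86e-06), and 12 of 14 animals had the lower value in CSN. Efnb1 was lower (-0.67), and Efnb2 (0.50) and Efna3 (0.56) were higher. Efna3 lost its call in edgeR and DESeq2 and without wild-type control replicate 9 at 105 days or replicate 2 at 60 days (adjusted p up to 0.081). Efna2 (-0.63, adjusted p = 0.0946) and Efna4 (-0.20, adjusted p = 0.176) did not pass.

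Of the Slits, 2 of 3 were higher, and of their Robo receptors 2 of 4. Slit2 stood at 2015 to 3206 (median 2535) in CSN and 654 to 1814 (median 1245) in control cells, with no overlap (log2 fold change 1.08, SE 0.131, adjusted p = 9.83e-10). Slit3 was higher as well (1.004), while Slit1 stood at 19.03 to 271 (median 73.7) and 34.2 to 383 (median 219) and was lower (log2 fold change -1.08, SE 0.239, adjusted p = 0.000133). Robo1 stood at 649 to 1329 (median 969.6) and 184 to 952 (median 377) (log2 fold change 1.37, SE 0.185, adjusted p = 1.27e-08), and Robo2 at 2606 to 5272 (median 4050) and 988 to 3822 (median 2441) (log2 fold change 0.94, SE 0.139, adjusted p = 1.17e-07). Both were higher in CSN in each of the 14 animals. Robo4, the endothelial Robo, was lower (-2.03, adjusted p = 1.33e-08) and is given although its level was under the limit set for named genes. Robo3 was lower (-0.55, adjusted p = 0.0475), but without any 1 of 26 libraries it did not pass (adjusted p up to 0.1).

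The netrin receptors held the largest fall of all. Unc5d stood at 19.1 to 159.9 (median 67.5) in wild-type CSN and 949 to 3462 (median 2035) in control cells, so the lowest control-cell library was several times the highest CSN library (log2 fold change -4.13, SE 0.199, adjusted p = 4.6e-23). Unc5c, another repulsive netrin receptor, went the other way, at 1784 to 3002 (median 2717) and 513 to 1322 (median 848), with no overlap (log2 fold change 1.52, SE 0.127, adjusted p = 1.74e-14). Unc5a stood at 1357 to 2913 (median 1966) and 479 to 1590 (median 786) and was higher in 13 of 14 animals (log2 fold change 1.30, SE 0.161, adjusted p = 1.64e-09). Dcc, the attractive receptor, was low in both, at 8.81 to 70.2 (median 36.1) and 20.4 to 298 (median 113), and lower in CSN in 13 of 14 animals (log2 fold change -1.06, SE 0.247, adjusted p = 0.000261). Unc5b, known from vessels, was lower (-0.96). Among the ligands, Ntn1 stood at 10.3 to 124 (median 22.99) and 3.46 to 282 (median 25.3) and did not pass (-0.26, adjusted p = 0.366), nor did Ntn4 (0.25, adjusted p = 0.44). Ntn5, chosen after its values were seen, stood at 0 to 24.9 (median 2.05) and 11.2 to 291 (median 145) (log2 fold change -2.08, SE 0.150, adjusted p = 1.27e-16). Ntn5 is among the 67 genes through control cells, so this fall is not independent of how the genes were chosen. It shares 519 exon bases (23.4% of its exons) with Sec1 on the opposite strand. The library kit keeps no strand information, and reads from the shared bases cannot be assigned to either gene. Sec1 averaged 30.8 over all libraries.

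Per kilobase of exon, the order of mean levels differed between the cell types. In wild-type CSN it was led by Ephb6 (1290 normalised reads per kb), Efna5 (1010), Epha4 (554), Nrp1 (485) and Unc5a (470.4). In wild-type control cells the first were Epha4 (1181), Efna5 (472), Ephb6 (344), Efna1 (302) and Efnb3 (258). Sema3e went from 16.3 per kb in control cells to 221 in CSN, and Unc5d from 224 to 8.28. Of the level per kb summed over all 67 genes, EphB receptors made up 17.3% ± 2.32 (SD, n = 16) in CSN and 7.60% ± 2.21 (n = 14) in control cells, and neuropilins 5.01% ± 0.832 and 2.23% ± 0.814. EphA receptors, with Epha4 among them, made up 18.8% ± 1.36 in CSN and 23.3% ± 7.02 in control cells. Membrane semaphorins took a smaller share in CSN, at 9.82% ± 1.06 and 13.8% ± 3.30, and plexins a similar one, at 11.0% ± 0.703 and 10.9% ± 1.59. In normalised reads, the 67 genes together summed to 67122 to 83321 (median 77815) in wild-type CSN and 42271 to 73078 (median 57226) in wild-type control cells.

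**Figure D3:**
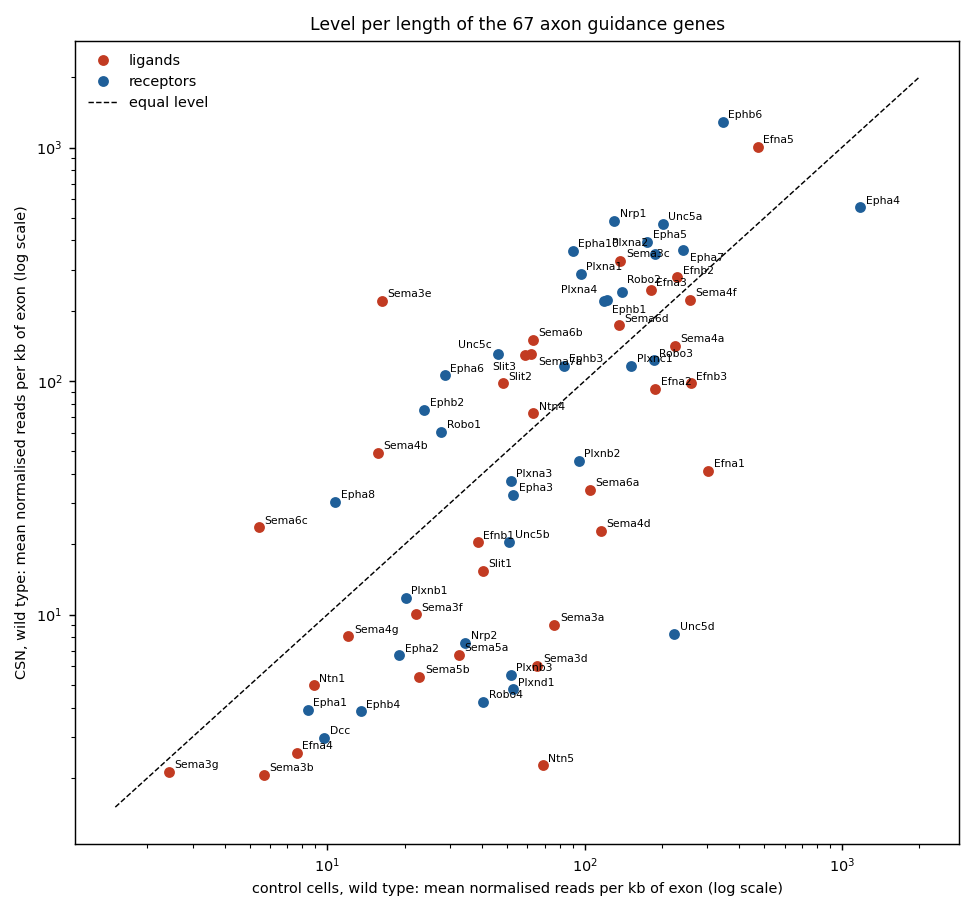
Mean normalised reads per kilobase of exon of each of the 67 guidance genes in wild-type control cells (horizontal, log axis) and wild-type CSN (vertical, log axis), with ligands and receptors in different colours and the line of equal level. Sema3e and Sema6c lie far above the line and Ntn5, Unc5d, Plxnd1 and Sema3d far below it, while Ephb6 and Efna5 are among the highest in both.

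Some of these genes are also known from vessels or oligodendrocytes. Of 10 guidance genes known in vascular cells, 6 were lower, 3 higher (Nrp1, Efnb2 and Sema6d) and 1 did not pass, beside 11 of 12 endothelial and mural cell markers that were lower (median -2.36) and 29.5% of all genes. All 4 genes known in oligodendrocytes or their precursors (Plxnb3, Sema4d, Sema6a and Sema5a) were lower, beside 8 of 8 oligodendrocyte markers (median -3.38) and 6 of 6 precursor markers (median -2.87). A glial score, the mean log2 level over the markers of astrocytes, oligodendrocytes and microglia, left 26 of the 57 calls when it entered the fit, 18 higher and 8 lower, and the mitochondrial share left 21, 11 higher and 10 lower. Sema3e (3.80, adjusted p = 1.94e-12 with the glial score and 3.70, adjusted p = 7.12e-08 with the mitochondrial share), Unc5d (-4.02, adjusted p = 6.94e-11 and -5.01, adjusted p = 9.75e-10), Nrp1 (1.78, adjusted p = 0.00105 and 2.27, adjusted p = 0.00286) and Epha4 (-1.88, adjusted p = 2.74e-07 and -1.34, adjusted p = 0.0138) were among the calls that remained with either. Plxnb3 (-0.81, adjusted p = 0.286 with the glial score), Sema4d (-0.57, adjusted p = 0.477), Sema6a (-0.91, adjusted p = 0.192), Sema5a (-0.58, adjusted p = 0.491), Efnb3 (-0.52, adjusted p = 0.452) and Dcc (-0.54, adjusted p = 0.476) were among the falls that did not pass with the glial score. Among the rises, Efna5 (0.41, adjusted p = 0.312), Robo2 (0.22, adjusted p = 0.588), Epha7 (0.31, adjusted p = 0.487) and Slit2 (0.63, adjusted p = 0.0676) did not pass with it. With the mitochondrial share Epha10 (1.203, adjusted p = 0.0747), Ephb2 (0.90, adjusted p = 0.0962) and Plxna4 (0.40, adjusted p = 0.32) did not pass. Both covariates differ strongly between the cell types, so these fits rest on the spread within groups. The glial score holds no neuronal markers. Of 10 upper-layer and callosal neuron markers 9 were lower in CSN and 1 was higher, and of 8 interneuron markers 4 were lower. The part of other cells, glia or neurons, in the remaining differences was not tested.

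In Sod1G86R animals the same comparison gave 30 higher and 28 lower of the 67 genes, and 9 did not pass, where 55.5% of all genes passed (24.9% higher and 30.6% lower). Sema3e stood at 1831 to 4312 (median 2567) in CSN and 90.5 to 579.6 (median 289.8) in control cells (log2 fold change 3.13, SE 0.177, adjusted p = 2.98e-20). Unc5d stood at 23 to 274 (median 56.6) and 935 to 4926 (median 2407) (log2 fold change -4.50, SE 0.210, adjusted p = 2.71e-23). Both were apart without overlap. In all, 9 genes had every CSN library above every control-cell library and 6 every one below, where 5.74% of all genes separated (3.06% above and 2.68% below). Nrp2 (-2.18, adjusted p = 2.67e-11), Sema3d (-2.80, adjusted p = 7.33e-12) and Ntn5 (-1.82, adjusted p = 8.39e-14) lay below without overlap in Sod1G86R but not in wild type. Ntn5 is among the 67 genes through control cells, as given above. Nrp1 (2.35), Ephb6 (1.95), Plxna1 (1.68), Robo1 (1.66), Ephb1 (1.63) and Unc5c (1.62) followed Sema3e among the rises. Sema3a (-2.89), Sema5a (-2.40), Dcc (-2.11), Efnb3 (-1.87) and Efna1 (-1.75) were among the falls. Epha6 was higher in CSN at 209.8 to 782 (median 408) against 51.4 to 508 (median 169.8) (log2 fold change 1.03, SE 0.281, adjusted p = 0.00171), where wild type gave 1.995. The difference between these values did not pass (adjusted p = 0.107).

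Whether the cell types differed in their response to the genotype was tested directly. None of the 67 genes passed for the difference of the genotype effect, CSN minus control cells, in limma, where 6.26% of all genes did (3.84% higher and 2.42% lower). Of the 67, 7 had an unadjusted p under 0.05. The share of all genes at that unadjusted limit was not counted, here or in the comparisons below. The smallest p-values were those of Dcc (log2 difference -1.04, SE 0.359, adjusted p = 0.0627), Epha5 (-0.50, adjusted p = 0.0702) and Epha6 (-0.96, adjusted p = 0.107). For Dcc, wild-type CSN stood at 8.81 to 70.2 (median 36.1) and Sod1G86R CSN at 4.001 to 55.05 (median 20.02), while wild-type control cells stood at 20.4 to 298 (median 113) and Sod1G86R control cells at 36.4 to 671 (median 219.9). Its median was lower in Sod1G86R in CSN and higher in control cells, with overlapping ranges in both. For the same difference 3 of 8 interneuron markers passed as lower (median -0.70). Of 8 astrocyte markers 7 were above 0 (median 0.55) and 0 passed. The part of other cells in these values was not tested. DESeq2 passed 3 genes, Dcc (-1.89, adjusted p = 0.00998), Epha5 (-0.53, adjusted p = 0.0313) and Epha6 (-1.27, adjusted p = 0.037), and edgeR passed Dcc (-1.86, adjusted p = 0.0335). Dcc also passed without the 90-day libraries (-1.42, adjusted p = 0.0464).

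In CSN, Sod1G86R was then compared with wild type over the 4 ages. Of the 62 guidance genes tested, 2 rose, Sema3e and Sema3c, 4 fell, Efnb3, Plxna3, Sema3d and Epha10, and 56 did not pass, where 19.1% of all 19093 genes passed (12.8% higher and 6.31% lower). Sema3b, Sema3g, Efna4, Ephb4 and Ntn5 were too low in CSN to be tested. Of the 62, 47 had values below 0, beside 10605 of all 19093 genes, and the median was -0.12 against -0.05 over all genes. At an unadjusted p under 0.05 the count was 17, a limit at which all genes were not counted. In all 67 genes the Sod1G86R and wild-type ranges overlapped, where 0.0471% of all genes separated. With quantile normalisation 0 rose and 8 fell, among them Efnb3, Plxna3 and Epha10. The share of mitochondrially encoded reads was lower in Sod1G86R CSN, as given above, and of the glial markers 3 of 8 microglia and 2 of 6 precursor markers fell, with 0 of 8 oligodendrocyte and 0 of 8 astrocyte markers passing (medians -0.88 and -0.23). When the mitochondrial share entered the limma fit, 0 of the 62 genes passed, with 4 at an unadjusted p under 0.05 (Efnb3, Plxna3, Efnb2 and Sema3e). When the glial score entered it, 3 passed, Efnb3, Plxna3 and Epha10. Of all genes, 25 passed with the mitochondrial share and 2780 with the glial score. Since the mitochondrial share itself differed between the genotypes, the fit with it cannot separate the share from the genotype.

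Efnb3 was the largest fall. In wild-type CSN it stood at 227, 361, 279 and 122 at 30 days, 263, 207, 242 and 339 at 60 days, 299, 239, 438 and 426 at 90 days and 295, 222, 890.3 and 135 at 105 days. In Sod1G86R CSN it stood at 59.8, 135 and 149.7 at 30 days, at 38.01, 244, 68.1 and 151 at 60 days, at 152.4, 97.3, 171 and 260.5 at 90 days and at 129 and 76.2 at 105 days. None of the 13 Sod1G86R libraries reached the wild-type median of 271. The wild-type range was wide, with 1 library at 105 days far above the others (log2 fold change -1.06, SE 0.225, adjusted p = 0.00181), and the estimates at the 4 ages were -0.90, -1.07, -0.93 and -1.33. It kept its call whichever of the 29 libraries was left out (adjusted p at most 0.00911) and without the 90-day libraries. With the glial marker score it was -0.95, adjusted p = 0.00927, and with the mitochondrial share -0.93, adjusted p = 0.203.

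Plxna3, a class A plexin that transduces class 3 semaphorins, fell as well. In wild-type CSN it stood at 208, 345, 416 and 244 at 30 days, at 348, 324, 353 and 224 at 60 days, at 295, 168, 349.8 and 319.9 at 90 days and at 312, 292, 259.7 and 257 at 105 days. Sod1G86R CSN gave 98.2, 205 and 276 at 30 days, 130.02, 262, 124.6 and 212 at 60 days, 189, 151, 136 and 181 at 90 days and 199 and 239 at 105 days. All 13 Sod1G86R libraries lay below the wild-type median of 304, and the lowest wild-type library, at 90 days, lay within the Sod1G86R range (log2 fold change -0.57, SE 0.147, adjusted p = 0.00788). By age the estimates were -0.61, -0.71, -0.64 and -0.31. No single library ended the call (adjusted p up to 0.0331), but the 90-day libraries did when left out, and so did the mitochondrial share (-0.52, adjusted p = 0.286).

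Of the Sema3 neighbours on chromosome 5, Sema3e and Sema3c rose and Sema3d fell, while Sema3a did not pass. Sema3e stood at 2266, 2401, 1938 and 1733 in wild-type CSN at 30 days, at 2175, 1651, 2049 and 1983 at 60 days, at 1744, 2125, 2041 and 1558 at 90 days and at 2666, 1792, 2654 and 2026 at 105 days. Sod1G86R CSN gave 2911, 2204 and 2567 at 30 days, 1831, 2428, 2064 and 2813 at 60 days, 2767, 2391, 4312 and 1908 at 90 days and 2776 and 3055 at 105 days. Of the 13 Sod1G86R libraries 11 were above the wild-type median of 2033 (log2 fold change 0.35, SE 0.107, adjusted p = 0.021). Sema3c had 9 of 13 above the wild-type median, with 1976 to 5061 (median 3199) against 1297 to 3533 (median 2226) (log2 fold change 0.38, SE 0.133, adjusted p = 0.0452). Its estimates by age were 0.49, 0.48, 0.59 and -0.05, so the 105-day value lay near 0. Sema3d, chosen after its values were seen because its level was under the limit for named genes, stood at 5.15 to 26.6 (median 17.8) against 9.17 to 156 (median 29.3) (log2 fold change -0.59, SE 0.201, adjusted p = 0.0377). None of its 13 Sod1G86R values reached the wild-type median, and 4 wild-type libraries stood at 112 to 156, far from the other 12. Epha10 stood at 1028 to 3302 (median 2081) against 1994 to 3728 (median 2510) (log2 fold change -0.33, SE 0.116, adjusted p = 0.0471), with 3 of 13 above the wild-type median, and its largest estimate was at 90 days (-0.22, -0.38, -0.57 and -0.14 by age).

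These 4 calls were less stable than those of Efnb3 and Plxna3. Leaving out replicate 9 of Sod1G86R at 105 days ended the call of Sema3e (adjusted p = 0.0581). Leaving out single libraries ended that of Sema3d for 12 of 29 (up to 0.0968), that of Epha10 for 20 (up to 0.107) and that of Sema3c for 20 (up to 0.185). Without the 90-day libraries Sema3e, Sema3c, Sema3d, Epha10 and Plxna3 did not pass. With quantile normalisation Sema3e was 0.20, adjusted p = 0.176, Sema3c 0.21, adjusted p = 0.246 and Sema3d -0.44, adjusted p = 0.146. With the mitochondrial share Sema3e was 0.30, adjusted p = 0.415, Sema3c 0.27, adjusted p = 0.601, Sema3d -0.53, adjusted p = 0.477 and Epha10 -0.12, adjusted p = 0.802. No alternative changed the sign of any of the 6.

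**Figure D4:**
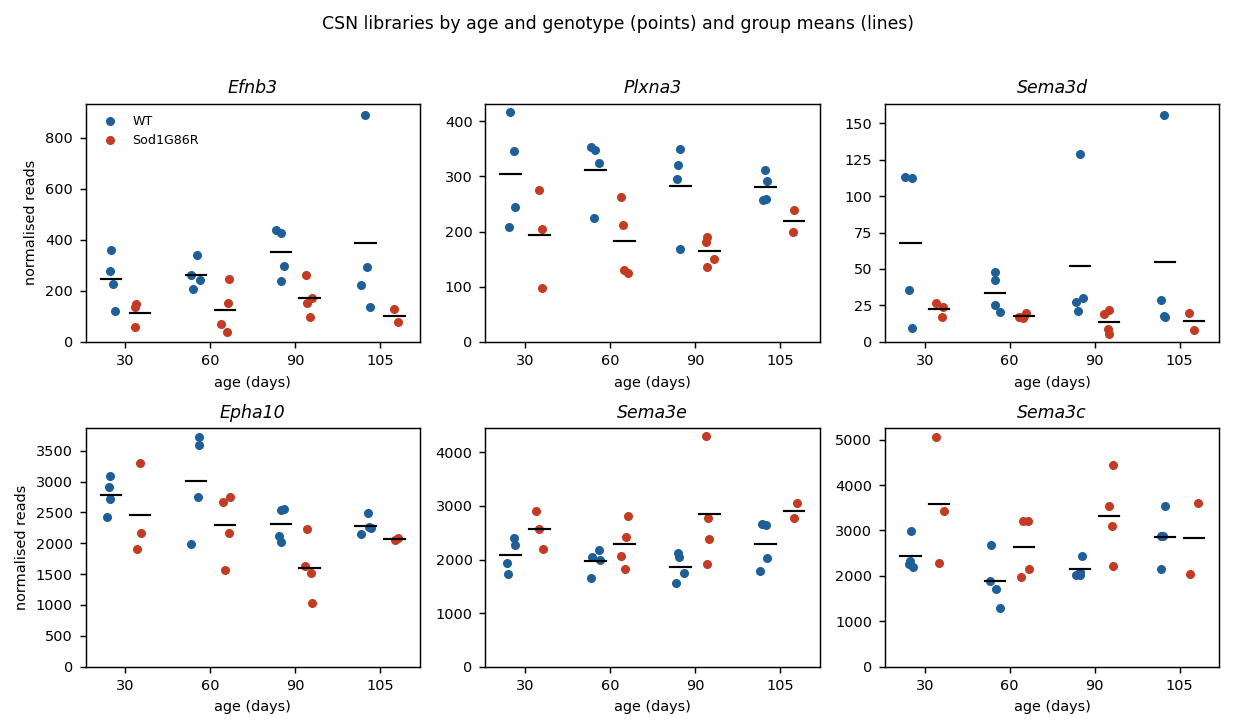
Normalised reads in each CSN library (points) by age in days (horizontal axis) and genotype, with lines at the group means, for the 6 guidance genes that passed between genotypes in CSN. Sod1G86R libraries of Efnb3, Plxna3 and Sema3d all lie below the wild-type median over the ages. A single wild-type library stands out in Efnb3 (890.3 at 105 days). Several stand out in Sema3d, among them those at 156 (105 days) and 129 (90 days).

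**Figure D5:**
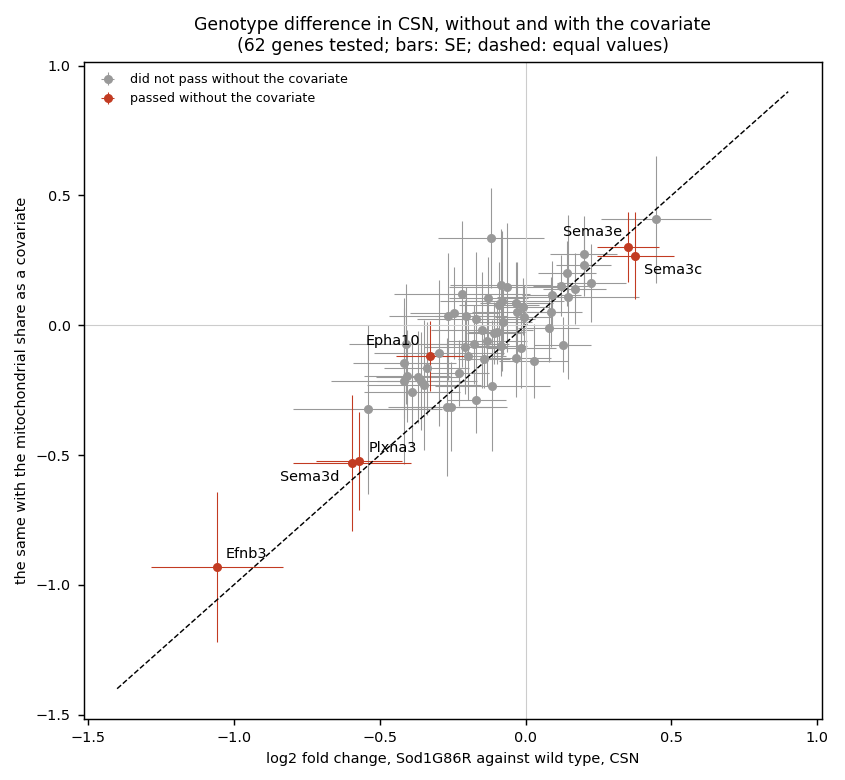
Log2 fold change of Sod1G86R against wild type in CSN for the 62 genes tested (horizontal axis) and the same with the mitochondrial share as a covariate (vertical axis), with standard errors and the line of equal values. Efnb3 moves from -1.06 to -0.93 and Plxna3 from -0.57 to -0.52 while Epha10 moves from -0.33 to -0.12, and none of the 62 passed with the covariate.

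Other guidance genes with a known role in corticospinal axons did not pass between genotypes in CSN. Epha4, the receptor of ephrin-B3, stood at 3907 to 8602 (median 5065) in Sod1G86R and 3246 to 5662 (median 4396) in wild-type CSN (0.22, adjusted p = 0.174). Nrp2 stood at 27.5 to 129.6 (median 55.05) and 53.8 to 149 (median 83.4), with a value just outside the limit (-0.41, adjusted p = 0.0517). It passed in edgeR (-0.64, adjusted p = 0.045) and DESeq2 (-0.63, adjusted p = 0.0264). Nrp1 (0.20, adjusted p = 0.133), Dcc (-0.34, adjusted p = 0.0952), Unc5c (0.12, adjusted p = 0.366), Ntn1 (-0.37, adjusted p = 0.0668), Sema6a (-0.35, adjusted p = 0.203), Sema3a (-0.08, adjusted p = 0.805) and Plxna4 (-0.11, adjusted p = 0.431) did not pass in limma either. Of these, Ntn1 passed in edgeR (-1.07, adjusted p = 0.0404) and DESeq2 (-1.06, adjusted p = 0.0227), and Dcc in DESeq2 (-0.93, adjusted p = 0.0398). Robo1 (0.09, adjusted p = 0.567), Robo2 (0.20, adjusted p = 0.216), Slit1 (-0.22, adjusted p = 0.519) and Slit2 (-0.14, adjusted p = 0.249) were also among the genes that did not pass, though Slit2 passed with quantile normalisation (-0.29, adjusted p = 0.0429). A p that misses the limit does not show that the levels were the same.

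In control cells 0 of 67 guidance genes passed between genotypes in limma, where 0.0716% of all genes passed (0.0143% higher and 0.0573% lower). Of the 67, 12 had an unadjusted p under 0.05, a limit at which all genes were not counted. All 8 interneuron markers were above 0 (median 0.60) and 1 passed. The markers of astrocytes (median -0.65), oligodendrocyte precursors (-0.74) and microglia (-0.60) were all below 0, and 0 of them passed. The smallest p-values were those of Sema3b (-0.49, adjusted p = 0.213), Sema3e (0.78, adjusted p = 0.227) and Ephb1 (-0.82, adjusted p = 0.266). By age the Sema3b estimates were -0.36, -1.77, -0.08 and 0.24, so the value rested mainly on 60 days. At that age wild-type control cells had 2 libraries, with glial scores of 14.2 and 14.4, the highest of all libraries. Sema3e stood at 90.5 to 579.6 (median 289.8) in Sod1G86R and 84.9 to 261 (median 146) in wild-type control cells, with overlapping ranges and the higher median in Sod1G86R. It passed in DESeq2 alone (0.999, adjusted p = 0.0205). The values of Efnb3 (-0.52, adjusted p = 0.409) and Plxna3 (-0.49, adjusted p = 0.426) were below 0 in control cells too. For these 2 genes and Sema3e the difference of the genotype effect between the cell types did not pass (adjusted p = 0.31, 0.89 and 0.263).

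Age was examined in wild type as 105 against 30 days. In CSN 0 of 62 genes passed in limma, where 0 of all genes passed (0%), and 7 of the 62 had an unadjusted p under 0.05. The smallest p-values were those of Sema4d (-0.95, adjusted p = 0.654), Sema3f (-0.62, adjusted p = 0.662) and Sema6c (-0.77, adjusted p = 0.669). Among the markers in these CSN, 8 of 8 for oligodendrocytes were below 0 (median -1.37). By contrast 8 of 8 for astrocytes were above 0 (median 1.22), and 0 of either list passed. In wild-type control cells 0 of 67 passed in limma, where 0.00955% of all genes passed, and 8 of the 67 had an unadjusted p under 0.05. Ntn5 had the smallest p. It stood at 52.8, 83.4, 11.2 and 68.5 at 30 days and 195, 260.2, 142.7 and 291 at 105 days (log2 fold change 1.58, SE 0.394, adjusted p = 0.0979), and it passed in DESeq2 (2.06, adjusted p = 0.0101). All 4 values at 105 days lay above all 4 at 30 days. Ntn5 was named for its small p in this same comparison, so the separation adds no support. The share of all genes that separate in this way was not counted. Ephb1 (-1.45, adjusted p = 0.24) and Plxnb3 (-1.79, adjusted p = 0.26) followed Ntn5 by p. Among the markers in these control cells, 8 of 8 for oligodendrocytes (median -2.21) and 12 of 12 for endothelial and mural cells (median -1.52) were below 0. For microglia 7 of 8 were above 0 (median 0.63), and 0 of these lists passed. The part of other cells in the values by age was not tested. Whether the genotype effect differed between ages was tested with 3 terms per cell type. In CSN 0 of 62 genes passed (3 at an unadjusted p under 0.05), with the smallest p in Sema7a, Dcc and Sema6c (adjusted p = 1 for each), and in control cells 0 of 67 (9 unadjusted), with the smallest in Sema3b (adjusted p = 0.304), Sema3f (0.423) and Efna1 (0.429). Of all genes, 0% passed in either at the adjusted limit, and all genes were not counted at the unadjusted limit. In control cells Sema3b (-1.77) and Efna1 (-2.16) had their largest genotype estimates at 60 days, where wild type had 2 libraries. Sema3f had its largest at 105 days (1.16).

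Beside the classical families, 29 other cues and co-receptors and 43 intracellular effectors were listed. Of the 29, 14 were higher in CSN than in control cells in wild type, 8 were lower and 7 did not pass, where 56.3% of all genes passed (26.8% higher and 29.5% lower). Gpc1, a heparan sulfate proteoglycan that binds Slits (2.80), Ntng1, a membrane-anchored netrin-G (2.49), and Flrt1, of the family of Unc5 ligands (2.13), had the smallest p-values. Between genotypes in CSN 3 of 27 rose and 3 fell, where 19.1% of all genes passed, with Bsg, a surface immunoglobulin protein (0.88), Rgmb, a ligand of neogenin (0.92), and Rtn4, which encodes the outgrowth inhibitor Nogo (0.38), first by p. Of 42 effectors tested, 16 were higher in CSN and 12 lower, led by Limk1, which phosphorylates cofilin (2.84), Dpysl5, a collapsin response mediator (2.51), and Enah, an actin elongation factor (1.25). Between genotypes in CSN 9 effectors rose and 2 fell of 42, with Pak1, a kinase downstream of Rac (0.71), Cdk5 (0.59) and the adaptor Nck1 (0.72) first. Of all genes, 12.8% rose and 6.31% fell, and 25 genes in all passed with the mitochondrial share in the fit. In control cells 0 of the 29 and 0 of the 42 passed between genotypes in limma. The genotype effect differed between the cell types for 1 of the 29, Bsg (1.08, adjusted p = 0.0287), and for 3 of the 42, Rac1 (0.79), Fyn (0.85) and Nck1 (0.79), where 6.26% of all genes passed.

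The guidance genes were long. Their median span on GRCm38 was 56.6 kb, from 4.64 to 1097 kb, against 24.8 kb for the 16392 protein-coding genes tested. Efnb3 has no promoter entry here. The windows before the starts of Epha10 (chr4:124881535-124881784) and Plxna3 (chrX:74328816-74329065) held 2 CCAAT boxes and none, in this order, and no TGACG or CGTCA. Exons of several guidance genes overlap a gene on the other strand, among them Plxna1 with Gm26811 (10.7% of its exons; Gm26811 averaged 12.8 normalised reads over all libraries) and Efna3 with Gm15998 (14.1%; 12.7). For the 6 genes that passed between genotypes in CSN, the overlap was limited to 1.10% of the exons of Epha10.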

How the data were processed

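The members and gene lists were chosen with earlier results of these data known. RNA was amplified with the SMART-Seq v4 kit (11 cycles, then 12 for the library), which does not mark strand, and sequenced in pairs of 50 bases, per the labels' protocols and the series' design text. Per that text, reads were aligned with STAR 2.7.0 to GRCm38 with Ensembl 87. The submitters' processing notes also name edgeR and mm10. The authors deposited 1 table of normalised counts for 57 libraries, a signal whose normalisation the sources used here do not describe. Every value was a whole multiple of 1 read's worth (100% within 0.001), which gave the reads per library and so the precision of low genes.

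The main test was limma 3.58.1 (R 4.3.3, trended and robust) on log2(value + 34.6), with 34.6 as 1 ppm of a typical column total (the median), also the minimum asked of 3 libraries. Groups of cell type, genotype and age had 1 coefficient each. Cell types were compared in a fit of all 57 libraries, genotypes and ages within each cell type, and comparisons averaged the 4 ages equally. P-values were adjusted by Benjamini-Hochberg over all genes of a fit. Named genes were 15 fixed ones and, from the passing genes whose higher group averaged 345.9 or more, up to 12 rises and 12 falls between cell types or 8 and 8 elsewhere. Where fewer than 3 passed, the 3 with the smallest p were named. Same-animal libraries of the 2 cell types pair by the labels' animal numbers. Their 25 pairs correlated at -0.318 to 0.282 (median 0.0385).

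Alternatives were 0.25 and 4 times the pseudocount, no filter, a stricter filter, quantile and TMM scaling, edgeR 4.0.16 and DESeq2 1.42.0 on the recovered reads, the 2 covariates, only the libraries compared, no 90-day libraries, a replicate block, and each library left out. Levels per kilobase used GENCODE M21 exon lengths, and promoter windows came from RefSeq. Scripts were tested on simulated data. Figures used matplotlib 3.10.9.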

Additional observations from a re-analysis of the deposited data

Results flagged for a closer look

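Of 36 sets of 4 libraries tested for a library far from the rest, 3 were flagged by Dixon's criterion, where chance flags about 1 in 20. Wild-type CSN replicate 6 at 90 days stood at 2447 normalised reads of Sema3c while the other 3 stood at 2027 to 2073. Wild-type CSN replicate 13 at 105 days stood at 156 for Sema3d against 17.1, 17.5 and 28.4. Wild-type CSN replicate 7 at 90 days stood at 129 for Sema3d against 20.9, 27.1 and 30.3. Without replicate 13 or without replicate 7, Sema3d did not pass between genotypes in CSN, and its fold change stayed below 0 in both.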

How the results depend on the processing

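No fold change that passed took the opposite sign and passed under any alternative. In wild type the 57 genes that passed between cell types became 21 with the mitochondrial share and 26 with the glial score, and 52 to 58 when 1 library was left out. In Sod1G86R the 58 became 25 with the glial score, and 55 to 59. Between genotypes in CSN the 6 became 2 without a filter, 0 with the mitochondrial share, 3 with the glial score, 2 without the 90-day libraries, and 2 to 9 with 1 library left out. In control cells the 0 became 1 in DESeq2. For the difference of the genotype effect the 0 became 1 with 0.25 times the pseudocount, 1 with quantile scaling, 1 without the 90-day libraries, 1 in edgeR, 3 in DESeq2, and 0 to 2 with 1 library left out (Dcc, Epha5 or Epha10). For age in control cells the 0 became 1 in DESeq2, and 0 to 1 with 1 library left out (Ephb3, without wild-type replicate 12 at 105 days). Age in CSN and genotype by age gave 0 under each alternative run. The cause of these changes was not tested. The median over all genes in Sod1G86R between cell types was -0.04, and 0.11 with TMM scaling. The same-animal block left the counts between cell types at 57 and 58, with the same genes, and no gene passed for the difference. Across genotypes the labels do not say whether libraries with the same replicate number share anything, and shared handling was not tested. In CSN 5 of 9 such pairs correlated over 0.1 (-0.048 to 0.493, median 0.249). There the replicate block gave 8 genes instead of 6, adding Nrp2 (-0.42, adjusted p = 0.0177) and Ntn1 (-0.34, adjusted p = 0.049). In control cells 2 of 7 did, and the block gave 0 genes. Low genes are limited by depth and by the pseudocount, which pulls their fold changes toward 0.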
